A study of Homo sapiens with 6 samples.

Results

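Cholinergic and monoamine receptor genes were read across control and METTL3-depleted neuroblastoma cells. The members were all genes of the count tables whose symbol names a nicotinic acetylcholine receptor subunit (CHRN), a muscarinic acetylcholine receptor (CHRM), an adrenoceptor (ADRA1, ADRA2 or ADRB), a serotonin receptor (HTR1 to HTR7) or a dopamine receptor (DRD). The rule used the symbol and no measured value, though it was set with earlier results of these data known. They numbered 52 of 19923 genes, namely 16 nicotinic subunits, 5 muscarinic receptors, 9 adrenoceptors, 5 dopamine receptors and 17 serotonin receptor genes. The cells were Kelly, a human neuroblastoma cell line in long use, MYCN-amplified and of WT genotype per the labels. One group of 3 libraries received a control siRNA (siControl) and the other group of 3 received an siRNA against METTL3 (siMETTL3), both by transient lipid transfection, and poly(A) RNA was sequenced after 72 hours. METTL3 is the methyltransferase that deposits N6-methyladenosine (m6A) on messenger RNA, within a larger writer complex. The series addresses METTL3 loss or inhibition in neuroblastoma differentiation. All libraries come from 1 cell line, and the labels do not say how many siRNA sequences were used or whether libraries of a group came from separate cultures. The p-values therefore measure only the spread between these libraries, which may be technical.

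Acetylcholine and the monoamines act through receptors of 2 designs. Nicotinic subunits and the HTR3 serotonin subunits assemble as pentamers around an ion channel that the transmitter opens directly, and the subunit mix sets ion permeability and affinity. The remaining families are G protein-coupled receptors, which raise or lower cyclic AMP or activate phospholipase C depending on the G protein they bind. In the sympathetic lineage, from which neuroblastoma arises, nicotinic receptors of the CHRNA3 and CHRNB4 type carry fast ganglionic transmission, and ADRA2 receptors on noradrenergic cells are inhibitory autoreceptors for the noradrenaline the cells release.

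METTL3 itself was 54.2 ± 1.80 CPM (reads of the gene relative to the scaled library size; mean ± SD, n = 3) in siControl and 33.0 ± 1.27 CPM in siMETTL3, a log2 fold change of -0.71 (SE 0.0696; edgeR quasi-likelihood FDR 4.68e-06); its span overlaps TOX4 in the tables, so the counts can share reads. Total counts ran from 15430000 (siControl replicate 3) to 21565013, and 3 counts correspond to 0.139 to 0.194 CPM. Library siControl replicate 3 stood furthest from its group, with a chi-square per degree of freedom of 9.23 and 16.9 against the other siControl libraries, where pairs within siMETTL3 gave 3.11 to 3.84. Calls that change without it are given beside each gene. The 14 noradrenergic neuroblastoma markers were all tested, and their summed level was 4858 to 5263 CPM in siControl and 6370 to 6764 CPM in siMETTL3. Of these 7 rose, among them DBH and HAND2, and 3 fell, namely ISL1 (103 ± 6.13 to 45.5 ± 3.50 CPM), CHGB and STMN2. Of 8 Schwann cell or glia markers 7 were in the tables, with a sum of 12.4 to 12.7 CPM in siControl and 17.6 to 19.1 CPM in siMETTL3. The sum over 9 fibroblast markers was 226 to 227 and 199 to 210 CPM, though COL1A1 and PRRX1 of these rose and TWIST1 alone was called lower. That over 6 skeletal muscle markers was 4.60 to 5.89 and 6.17 to 7.50 CPM, and the 5 leukocyte markers each stayed under 1 CPM in every library. No marker in the tables was at 0 in all libraries; S100B and FOXD3 of the glial list, COL1A2, LUM and DCN of the fibroblast list, and ACTA1, CKM, MYOG and DES of the muscle list were under 1 CPM in every library. The summed noradrenergic, glial, muscle and fibroblast levels moved with the groups, and their part in the results below was not tested. In bulk RNA, fewer cells of a type and less RNA per cell cannot be told apart.

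More tested receptor genes rose than fell in siMETTL3. Among the 30 receptor genes with enough counts to be tested, 11 rose and 3 fell at an FDR under 0.05 (edgeR quasi-likelihood test, adjusted over all 15311 tested genes), and 16 were not called. Of those that rose, 10 are described here, namely CHRNA2, ADRA1D, CHRNA4, CHRM1, DRD2, HTR1E, HTR3B, HTR6, CHRM3 and CHRNB4. Those that fell were ADRA2A, ADRA2C and CHRNA7. Of all tested genes, 18.6% were called higher and 19.2% lower, so the share of tested receptor genes called higher (36.7%) was above that background and the share called lower (10.0%) was below it. The median log2 fold change was 0.39 over the 30 receptor genes and -0.0021 over all tested genes. No test of the list was made, and nothing is called particular to it from these counts. A receptor gene called higher by at least 2-fold was found 4 times, CHRNA2, ADRA1D and CHRNA4 among them, against 2.74% of all tested genes. CHRNA2 and CHRNA4 passed the count filter described below through their siMETTL3 libraries, so nothing is concluded from this count. Both genes also enter the 36.7%, the median of 0.39 and the 15 genes that follow, and nothing is concluded from those values either. In 15 receptor genes all 3 siMETTL3 libraries lay above all 3 siControl libraries (24.8% of all tested genes), and in 4 all lay below (25.1% of all tested genes).

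The count filter bears on these totals. It asked for about 0.49 CPM in 3 libraries, and 25 of the 30 tested receptor genes exceeded that in all 6 libraries; 9 of these were called higher and 3 lower. Of the other 5, CHRNA2, CHRNA4 and CHRND exceeded it in all siMETTL3 libraries but in 1 siControl library, HTR4 in 3 and 2, and CHRNA1 in 2 and 2. A gene that passes through its higher group alone is more likely to differ, so the counts over tested genes describe the tested genes and not the 52. The matching shares over all genes above the cut in all 6 libraries are not given, so the 9 and 3 have no background here. When each library had to hold 10 or more counts of a gene, 24 receptor genes were tested. Of these 10, CHRNB2 among them, were called higher and 3 lower. Of all 14459 genes then tested, 2842 were called higher and 2864 lower, and the difference was not tested. None of the 14 called receptor genes overlaps another gene of the tables, whereas 7 uncalled receptor genes do.

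**Figure D1:**
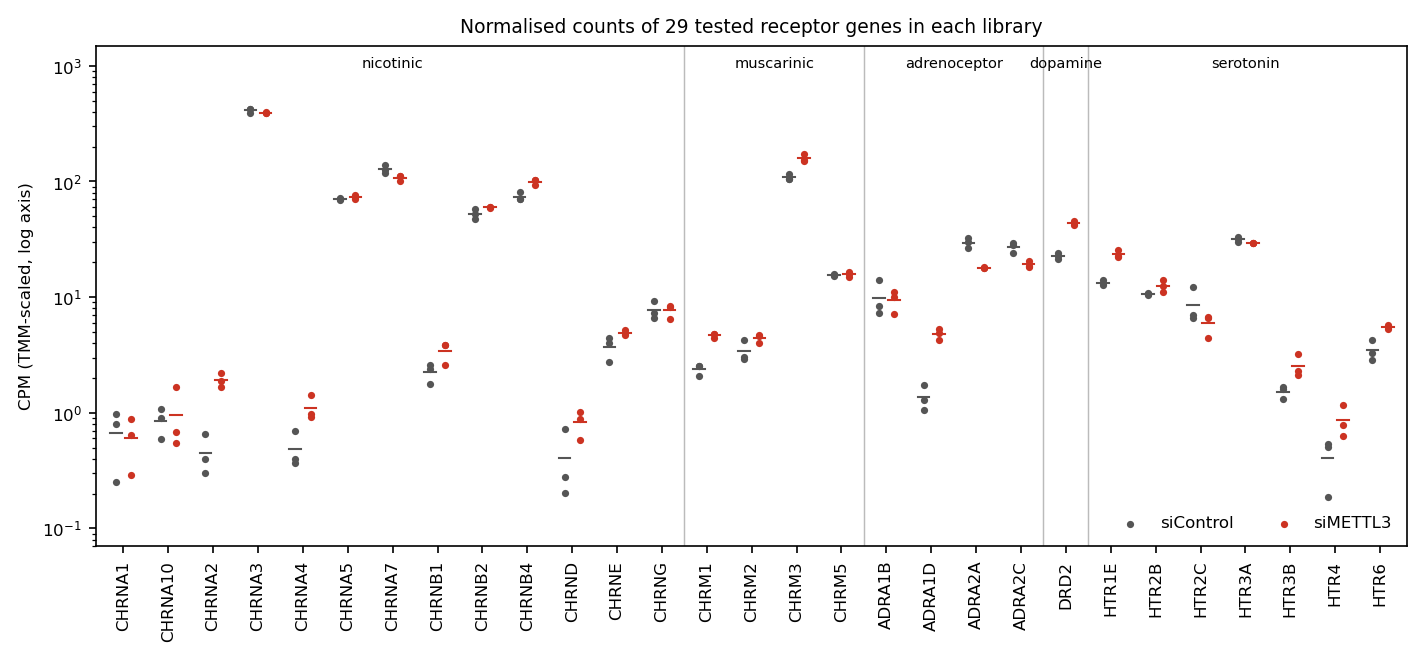
Normalised counts (CPM, TMM-scaled, log axis) of 29 tested receptor genes, grouped by family, with 1 point per library and a bar at each group mean. CHRNA3 is the highest receptor gene, at 392 to 424 CPM, while the points of the 2 groups are clear of each other for CHRNA2, ADRA1D and DRD2 among those that rose and for ADRA2A and ADRA2C among those that fell.

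**Figure D2:**
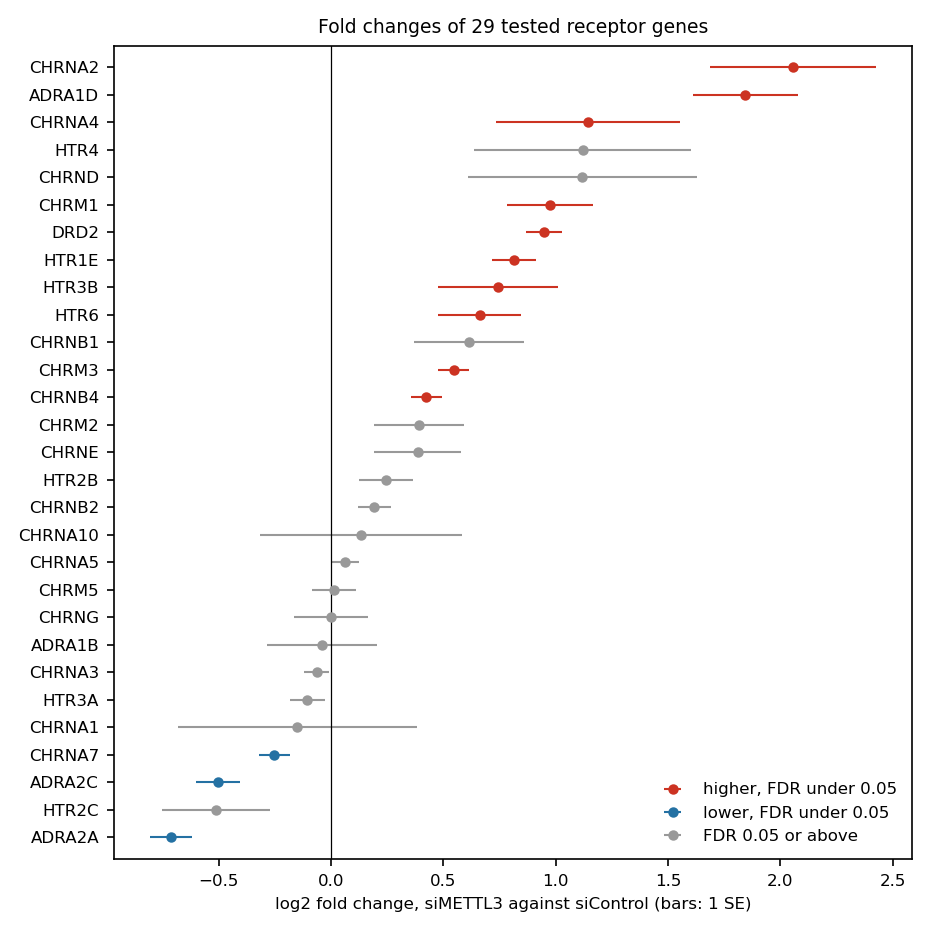
Log2 fold change of 29 tested receptor genes in siMETTL3 against siControl, with bars of 1 SE, colored by call. CHRNA2 stands at the top with 2.06 and ADRA2A at the bottom with -0.71, and the widest bars belong to genes near 1 CPM or below, such as CHRNA1 and CHRND.

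Adrenoceptors were called in both directions: the Gq-coupled ADRA1D rose, while both tested Gi-coupled ADRA2 genes fell. ADRA1D (chromosome 20, 4220630 to 4249287, minus strand), an alpha-1 adrenoceptor that activates phospholipase C, read 1.30, 1.05 and 1.73 CPM in siControl and 5.30, 4.27 and 4.87 CPM in siMETTL3. The groups did not overlap, and the rise was 3.59-fold (log2 1.84, SE 0.234; FDR 4.25e-05). Its relative ADRA1B was not called, with 9.86 ± 3.58 CPM in siControl and 9.42 ± 2.08 CPM in siMETTL3 (log2 fold change -0.041, SE 0.247; FDR 0.918). For ADRA1B the siControl replicate 3 value of 13.9 CPM was the highest of the 6, and the other siControl libraries were at 7.23 and 8.41 CPM.

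ADRA2A (chromosome 10, 111077029 to 111080907, plus strand), the alpha-2A autoreceptor, read 26.8, 29.8 and 32.4 CPM in siControl and 18.0, 17.8 and 18.3 CPM in siMETTL3. The siMETTL3 libraries were close together and all lay below siControl, at 61.0% of the control level (log2 fold change -0.71, SE 0.0927; FDR 5.23e-05). ADRA2C (chromosome 4, 3766348 to 3768526, plus strand), the alpha-2C subtype, read 24.2, 28.2 and 29.2 CPM in siControl and 18.1, 20.6 and 18.7 CPM in siMETTL3. It fell to 70.6% of control (log2 fold change -0.50, SE 0.0981; FDR 0.00124), again with no overlap. ADRA2A and ADRA2C each have a single exon in GENCODE release 44, so their counts contain no intron of their own.

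The 5′ regions of the ADRA2 pair are shown because these genes moved together. Each is the RefSeq window of 250 bases before to 50 bases after the RefSeq start of the gene (GRCh38.p14, plus strand). The windows are chr10:111076779-111077078 for ADRA2A and chr4:3766135-3766434 for ADRA2C. For ADRA2C the RefSeq start lies downstream of the start of the counted span. Capitals mark matches to GGGCGG, the core of the GC box, or to CACGTG, the E-box that MYC family proteins are known to bind.
ADRA2A: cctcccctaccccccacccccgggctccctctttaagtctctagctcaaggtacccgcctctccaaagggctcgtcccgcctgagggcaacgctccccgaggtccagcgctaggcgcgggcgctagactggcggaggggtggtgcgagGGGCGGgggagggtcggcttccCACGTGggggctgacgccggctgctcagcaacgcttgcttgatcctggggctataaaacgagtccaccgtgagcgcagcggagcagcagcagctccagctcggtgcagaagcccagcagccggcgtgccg
ADRA2C: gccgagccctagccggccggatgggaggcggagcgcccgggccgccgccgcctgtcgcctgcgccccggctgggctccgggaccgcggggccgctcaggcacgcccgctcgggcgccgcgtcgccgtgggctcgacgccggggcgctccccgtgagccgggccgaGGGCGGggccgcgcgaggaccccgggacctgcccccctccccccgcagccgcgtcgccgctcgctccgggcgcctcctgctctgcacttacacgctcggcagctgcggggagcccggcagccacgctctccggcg
Each window holds 1 GGGCGG, and ADRA2A also holds 1 CACGTG, which ADRA2C lacks.

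Across the RefSeq windows, 4 motifs were searched on both strands. Besides CACGTG and besides GGGCGG these were the CCAAT box, spelled CCAAT, and the cyclic AMP response element, spelled TGACGTCA, and none of the 4 contains another. CACGTG stood in 7.26% of 35116 windows, GGGCGG in 45.0%, CCAAT in 34.6% and TGACGTCA in 1.85%. A window was found for 38 of the 52 receptor genes. CACGTG was in 5 of these genes (ADRA2A, CHRNA7, HTR6, DRD1 and DRD4), GGGCGG in 22, CCAAT in 13 and TGACGTCA in 0. Some genes have several windows, and the shares above are of windows. Of the 47 receptor windows, CACGTG was in 6, GGGCGG in 25, CCAAT in 13 and TGACGTCA in 0. A match is a stretch of letters and says nothing of binding in these cells.

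Nicotinic subunits ranged from under 1 CPM to the highest counts of any receptor gene, those of CHRNA3. Of 16 subunits 13 were tested, of which 3 rose (CHRNA2, CHRNA4 and CHRNB4), 1 fell (CHRNA7) and 9 were not called, against 18.6% higher and 19.2% lower over all tested genes. The subunit genes CHRNA5, CHRNA3 and CHRNB4 are neighbours on chromosome 15 and can assemble in one ganglionic receptor, and only CHRNB4 among them was called. CHRNB4 (chromosome 15, 78624111 to 78727754, minus strand), a beta subunit, read 80.9, 71.2 and 70.0 CPM in siControl and 93.4, 102 and 103 CPM in siMETTL3. Every siMETTL3 library was above every siControl library, and the rise was 1.34-fold (log2 0.42, SE 0.0698; FDR 0.000356). Its span of 103644 bases was counted whole. In GENCODE release 44 that span holds 3357 bases of exons of other genes, GOLGA6GP and RPL18P11 among them, whose reads would be counted for CHRNB4.

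CHRNA3 (chromosome 15, 78593052 to 78621295, minus strand), the ligand-binding alpha-3 subunit, read 422, 424 and 392 CPM in siControl and 396, 394 and 393 CPM in siMETTL3. Its groups overlapped, with a log2 fold change of -0.065 (SE 0.0551; FDR 0.384). CHRNA5 (chromosome 15, 78565520 to 78595269, plus strand), an accessory subunit, was 70.5 ± 1.12 CPM in siControl and 73.6 ± 2.51 CPM in siMETTL3 (log2 fold change 0.063, SE 0.0591; FDR 0.438). These genes converge and share 2218 bases, from 78593052 to 78595269, which are 7.46% of the CHRNA5 span and 7.85% of the CHRNA3 span. No strand option was set in counting, so a read there was counted for both. The difference between the changes of CHRNB4 and its neighbours was not tested.

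**Figure D3:**
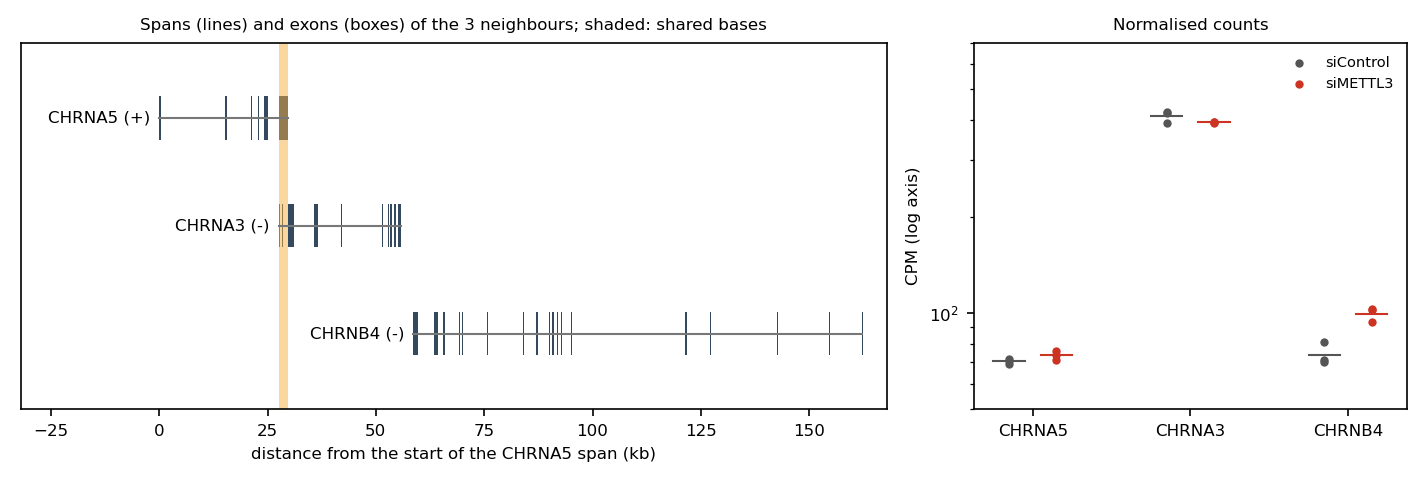
Left, the spans (lines) and merged exons (boxes) of CHRNA5, CHRNA3 and CHRNB4 by distance in kb from the start of the CHRNA5 span, with the shared bases of CHRNA5 and CHRNA3 shaded. Right, their normalised counts (CPM, log axis), 1 point per library with group means, where CHRNB4 alone shows separate groups.

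The starts of CHRNA3 and CHRNB4 are shown because these neighbours differ in call. They are RefSeq windows of the same kind on the minus strand of chromosome 15 (GRCh38.p14), chr15:78620947-78621246 for CHRNA3 and chr15:78641161-78641460 for CHRNB4. Each window lies inside the counted span of its gene, and each span extends further upstream, that of CHRNB4 by more. Capitals mark GGGCGG on either strand, which reads CCGCCC where it stands on the opposite strand.
CHRNA3: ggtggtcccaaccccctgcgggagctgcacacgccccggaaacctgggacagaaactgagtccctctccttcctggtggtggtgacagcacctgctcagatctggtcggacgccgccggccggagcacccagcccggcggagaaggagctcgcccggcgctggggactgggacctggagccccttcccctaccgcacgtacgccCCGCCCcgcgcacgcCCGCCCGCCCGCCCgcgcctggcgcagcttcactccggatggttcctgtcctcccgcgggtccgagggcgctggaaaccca
CHRNB4: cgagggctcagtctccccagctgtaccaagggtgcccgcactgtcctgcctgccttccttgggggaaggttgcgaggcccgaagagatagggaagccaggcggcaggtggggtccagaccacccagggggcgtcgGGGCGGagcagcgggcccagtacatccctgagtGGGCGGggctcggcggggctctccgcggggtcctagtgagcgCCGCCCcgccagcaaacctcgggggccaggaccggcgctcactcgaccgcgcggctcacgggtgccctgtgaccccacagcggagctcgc
The CHRNA3 window holds 4 matches, 3 of them in one run, and the CHRNB4 window holds 3, and neither window holds any of the other 3 motifs.

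CHRNA7 (chromosome 15, 31923438 to 32173018, plus strand), the subunit of the calcium-permeable homomeric receptor, read 140, 127 and 120 CPM in siControl and 111, 102 and 111 CPM in siMETTL3. All siMETTL3 libraries were lower, at 83.9% of control (log2 fold change -0.25, SE 0.0679; FDR 0.00967). Without siMETTL3 replicate 2 the FDR was 0.0614. CHRFAM7A, a fusion gene that carries a near-identical partial copy of CHRNA7, was 10.1 ± 1.98 CPM in siControl and 10.6 ± 1.15 CPM in siMETTL3 (log2 fold change 0.060, SE 0.149; FDR 0.788), and reads may have been split between these copies.

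CHRNA2 (chromosome 8, 27459756 to 27479883, minus strand), a neuronal alpha subunit, was low and rose by 4.16-fold. It read 0.649, 0.300 and 0.398 CPM in siControl (14, 6 and 6 reads) and 1.65, 2.20 and 1.90 CPM in siMETTL3 (34, 48 and 39 reads). The siMETTL3 libraries were all well above siControl (log2 fold change 2.06, SE 0.368; FDR 0.000662). CHRNA4 (chromosome 20, 63343223 to 63378401, minus strand), which pairs with CHRNB2 in the main high-affinity nicotinic receptor of brain, read 0.371, 0.701 and 0.398 CPM in siControl (8, 14 and 6 reads) and 1.41, 0.919 and 0.974 CPM in siMETTL3 (29, 20 and 20 reads). Its log2 fold change was 1.14 (SE 0.411; FDR 0.0413). This call was held in 6 of 14 alternative settings that gave a value, and it was lost when any library other than siControl replicate 2 was left out (FDR 0.0686 to 0.177). Its partner CHRNB2 read 52.0, 47.7 and 58.2 CPM in siControl and 60.7, 59.9 and 59.4 CPM in siMETTL3, with siMETTL3 above in every library by a small margin (log2 fold change 0.19, SE 0.0745; FDR 0.0567). CHRNB2 was called in 7 of 16 alternatives, and without siControl replicate 3 its FDR was 0.00253.

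The subunits of the muscle-type receptor (CHRNA1, CHRNB1, CHRND, CHRNE and CHRNG) were all tested and 0 were called by edgeR, DESeq2 or limma-voom at an FDR under 0.05; CHRNB1 and CHRND had an unadjusted edgeR p under 0.05 (0.0251 and 0.0461). CHRNB1 read 1.76, 2.60 and 2.39 CPM in siControl and 3.84, 3.86 and 2.58 CPM in siMETTL3 (log2 fold change 0.61, SE 0.245; FDR 0.0624). CHRND was 0.403 ± 0.286 CPM in siControl and 0.823 ± 0.218 CPM in siMETTL3 (log2 fold change 1.12, SE 0.510; FDR 0.101). Without siControl replicate 3 the FDR was 0.0441 for CHRNB1 and 0.0186 for CHRND. CHRNG, the fetal gamma subunit, was 7.69 ± 1.32 and 7.72 ± 1.05 CPM. TIGD1 as counted in the tables overlaps 1.73% of the CHRNG span, and TIGD1 exons of GENCODE release 44 cover 50.2% of it. CHRNE was 3.70 ± 0.877 and 4.90 ± 0.241 CPM (log2 fold change 0.39, SE 0.195; FDR 0.137), and it overlaps MINK1, which rose (log2 fold change 0.38, SE 0.0613; FDR 0.000330). CHRNA1 stayed under 1 CPM in every library, as did the muscle markers ACTA1, CKM, MYOG and DES. The other muscle markers were MYH3, at 2.79 ± 0.507 and 2.82 ± 0.504 CPM, and TNNT1, which rose from 1.93 ± 0.177 to 3.26 ± 0.434 CPM (FDR 0.0178). CHRNA10, which serves cochlear hair cells with CHRNA9, was 0.855 ± 0.238 and 0.962 ± 0.602 CPM (log2 fold change 0.13, SE 0.449; FDR 0.849) and overlaps NUP98.

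Of 5 muscarinic receptors 4 were tested, and 2 of these, both coupled to Gq, rose. Over all tested genes 18.6% were called higher and 19.2% lower. CHRM3 (chromosome 1, 239386565 to 239915452, plus strand) read 105, 105 and 116 CPM in siControl and 173, 153 and 150 CPM in siMETTL3. No library overlapped the other group, and the rise was 1.46-fold (log2 0.55, SE 0.0682; FDR 3.84e-05). Its span of 528888 bases was counted whole and contains the antisense genes CHRM3-AS1 and CHRM3-AS2, whose reads cannot be told apart from its own without strand. CHRM1 (chromosome 11, 62908679 to 62921807, minus strand) read 2.09, 2.55 and 2.52 CPM in siControl and 4.81, 4.41 and 4.82 CPM in siMETTL3, a 1.97-fold rise (log2 0.98, SE 0.191; FDR 0.00127).

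The Gi-coupled CHRM2 was 3.40 ± 0.735 CPM in siControl and 4.41 ± 0.365 CPM in siMETTL3, with overlapping groups (log2 fold change 0.39, SE 0.199; FDR 0.140). Its FDR was 0.0367 without siControl replicate 3. CHRM5, also coupled to Gq, was 15.6 ± 0.352 and 15.7 ± 0.892 CPM (log2 fold change 0.013, SE 0.0983; FDR 0.934), and 71.4% of its span lies within AVEN. The Gi-coupled CHRM4 had 4 to 10 reads in each library and was not tested.

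DRD2 (chromosome 11, 113409605 to 113475691, minus strand), the Gi-coupled dopamine receptor that also serves as an autoreceptor on dopamine neurons, was the only tested member of its family and rose 1.93-fold. It read 24.0, 22.5 and 21.3 CPM in siControl and 41.8, 44.1 and 45.1 CPM in siMETTL3. The spread within each group was small beside the difference (log2 fold change 0.95, SE 0.0794; FDR 1.29e-06). The other dopamine receptors, DRD1, DRD3, DRD4 and DRD5, had at most 6 reads in any library.

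Serotonin receptor genes were called in 3 of the 7 that were tested, all higher, against 18.6% higher and 19.2% lower over all tested genes. HTR1E (chromosome 6, 86937528 to 87016679, plus strand), a Gi-coupled receptor, read 13.4, 12.8 and 13.9 CPM in siControl and 25.7, 22.6 and 22.2 CPM in siMETTL3. All siMETTL3 libraries stood above siControl, with a 1.76-fold rise (log2 0.81, SE 0.0991; FDR 3.11e-05). HTR6 (chromosome 1, 19664875 to 19680966, plus strand), a Gs-coupled receptor, read 4.22, 3.30 and 2.85 CPM in siControl and 5.54, 5.79 and 5.26 CPM in siMETTL3 (log2 fold change 0.66, SE 0.183; FDR 0.0115). Leaving out siMETTL3 replicate 2 gave an FDR of 0.0504 for HTR6.

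The ion channel subunits of the HTR3 receptor did not share a call. HTR3B (chromosome 11, 113904677 to 113949078, plus strand), which modifies channels formed by HTR3A, read 1.67, 1.30 and 1.59 CPM in siControl and 2.14, 2.30 and 3.21 CPM in siMETTL3 (log2 fold change 0.74, SE 0.268; FDR 0.0421). The groups did not overlap, yet the call was held in 10 of 16 alternatives, and the FDR was 0.134 without siControl replicate 2, 0.0656 without siMETTL3 replicate 2 and 0.178 without siMETTL3 replicate 3. HTR3A, the subunit that every HTR3 channel needs, was 31.6 ± 1.56 CPM in siControl and 29.3 ± 0.263 CPM in siMETTL3 (log2 fold change -0.11, SE 0.0775; FDR 0.310).

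Among the other tested serotonin receptors, HTR2C was the one with the largest negative estimate. It read 6.63, 7.01 and 12.1 CPM in siControl and 4.42, 6.71 and 6.62 CPM in siMETTL3 (log2 fold change -0.51, SE 0.241; FDR 0.119). The high siControl value came from replicate 3, as for ADRA1B. With 1 library left out the log2 fold change ran from -0.67 without siControl replicate 1 (FDR 0.0327) to -0.20 without siControl replicate 3 (FDR 0.393). HTR2B read 10.8, 10.6 and 10.4 CPM in siControl and 12.5, 11.1 and 14.1 CPM in siMETTL3 (log2 fold change 0.25, SE 0.120; FDR 0.127), and its whole span lies inside PSMD1, which was not called. HTR4 had 0.406 ± 0.191 and 0.860 ± 0.275 CPM (log2 fold change 1.12, SE 0.484; FDR 0.0847).

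Ordered by signalling, a grouping made after the values were seen, the calls were spread over every class. Over all tested genes 18.6% were called higher and 19.2% lower, the class counts are small, and no class was tested. Of 21 channel subunit genes 15 were tested, of which 4 rose and 1 fell. Of 9 receptors coupled to Gq 7 were tested, and 3 were called, all higher. The 14 receptors coupled to Gi had 5 tested members, with DRD2 and HTR1E higher and ADRA2A and ADRA2C lower. Of those coupled to Gs, HTR6 rose and HTR4 was not called.

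The remaining 22 receptor genes stayed under the filter, and no library held more than 12 reads of any of them. They were CHRNA6, CHRNA9, CHRNB3, CHRM4, ADRA1A, ADRA2B, ADRB1, ADRB3, DRD1, DRD3, DRD4, DRD5, HTR1A, HTR1B, HTR1D, HTR1F, HTR2A, HTR3C, HTR3D, HTR3E, HTR5A and HTR7. DRD5, HTR1A and ADRB1 had 0 reads in all 6 libraries, which at 3 counts allows a level of up to 0.139 to 0.194 CPM depending on the library. A further 3 (HTR1F, HTR3D and HTR5A) were at 0 in every siControl library, and 6 (CHRM4, HTR2A, HTR1B, DRD3, ADRA1A and CHRNA6) had reads in all 6 libraries. With no filter, 19 of the 22 received a test and 0 were called by edgeR, 0 had an unadjusted p under 0.05, and the lowest FDR was 0.197. At this depth no difference was detected for these genes, and their few reads limit what could be detected.

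Compared per length, on the scale of CPM per kb of merged exon, CHRNA3 led the family in both groups. Its siControl level was 86.7 ± 3.73 CPM per kb, followed by CHRNA5 with 19.5 ± 0.310, CHRNB4 with 14.8 ± 1.20, ADRA2C with 12.5 ± 1.22 and HTR3A with 12.2 ± 0.607. ADRA2C and HTR3A did not differ beyond their spread, and neither did CHRNB4 and CHRNA5 in siMETTL3, at 19.9 ± 1.05 and 20.3 ± 0.692 CPM per kb. Of the monoamine receptors in siMETTL3, HTR1E (12.9 ± 1.04), HTR3A (11.4 ± 0.102) and DRD2 (10.6 ± 0.413 CPM per kb) were above ADRA2C (8.79 ± 0.585) and ADRA2A (4.65 ± 0.0573 CPM per kb), where in siControl ADRA2C and HTR3A had been the highest of these 5. Because counts include intron reads, this order depends on the length used: by whole span CHRNA3 kept rank 1, while HTR1E moved from rank 8 to 18 and CHRM3 from rank 9 to 15 among the 52. The ADRA2 pair, which has no introns, then stood at ranks 2 (ADRA2C) and 3 (ADRA2A) in siControl, above HTR3A at 6, DRD2 at 11 and HTR1E at 18.

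METTL3 methylates adenosines in a sequence context of which GGACT is a common form, and its occurrences were counted in the canonical GENCODE release 44 transcript, on the transcript strand alone. The median was 1.01 GGACT per kb over the 30 tested receptor genes and 0.929 over 14603 tested genes with a transcript. CHRNA4 held 12 in 5583 bases, whereas HTR1E and HTR3B, which rose as well, held 0. Among those that fell, ADRA2C held 0, ADRA2A 1 and CHRNA7 4. The median was 1.02 per kb for the 11 that rose, 0.258 for the 3 that fell and 1.20 for the 16 not called. The motif count is a property of the sequence, and no methylation was measured in these libraries.

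The call counts of the 6 lists that follow stand against 18.6% higher and 19.2% lower over all tested genes, and a share near these is not a result about a list. Genes that make and store the monoamines mostly rose where they were called, and those of acetylcholine were called in both directions. Of 17 genes of serotonin and catecholamine synthesis, transport and breakdown 13 were tested, 7 rose and 1 fell, with a median log2 fold change of 0.35. Of those that rose, TH, DBH and DDC are also noradrenergic markers counted above, so the rises of the list and of the markers are not separate observations. TH, the rate-limiting enzyme of catecholamine synthesis, was 182 ± 24.9 CPM in siControl and 520 ± 37.4 CPM in siMETTL3 (log2 fold change 1.52, SE 0.0897; FDR 1.89e-07). The vesicular monoamine transporters SLC18A1 and SLC18A2 rose with log2 fold changes of 1.20 (SE 0.0900; FDR 1.33e-06) and 1.08 (SE 0.0597; FDR 2.55e-08), SLC18A2 overlapping PDZD8 in the tables. MAOA, which degrades monoamines, was the gene that fell, from 219 ± 7.30 to 162 ± 10.2 CPM (log2 fold change -0.43, SE 0.0603; FDR 0.000101).

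All 8 listed genes of acetylcholine synthesis, storage, uptake and breakdown were tested, and 2 rose and 3 fell, with a median log2 fold change of -0.19. SLC5A7, the choline transporter of cholinergic terminals, fell from 2.11 ± 0.108 to 0.607 ± 0.160 CPM (log2 fold change -1.79, SE 0.321; FDR 0.000662). BCHE, a cholinesterase, fell from 33.9 ± 1.47 to 20.0 ± 0.335 CPM (log2 fold change -0.76, SE 0.0807; FDR 9.50e-06). PRIMA1, the membrane anchor of acetylcholinesterase, rose from 24.4 ± 1.43 to 44.9 ± 2.07 CPM (log2 fold change 0.88, SE 0.0789; FDR 2.46e-06). SLC44A1 was the other that rose, and SLC18A3, which lies within CHAT, the other that fell. CHAT itself, the enzyme that makes acetylcholine, was 20.9 ± 2.94 and 17.3 ± 1.15 CPM and was not called (FDR 0.0613).

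Of 18 nicotinic assembly and accessory genes 13 were tested and 2 were called, both lower, which is no larger a share than the 19.2% of all tested genes. The median of their log2 fold changes was -0.011. MUSK, the kinase that clusters receptors at the muscle endplate, read 4.31, 2.90 and 4.78 CPM in siControl and 1.80, 1.29 and 1.36 CPM in siMETTL3 (log2 fold change -1.42, SE 0.260; FDR 0.000782), and LY6E fell from 74.2 ± 2.00 to 63.4 ± 2.07 CPM (log2 fold change -0.23, SE 0.0604; FDR 0.00900).

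Downstream of the G protein-coupled receptors, 7 of 12 tested G protein alpha genes rose and 1, GNAL, fell (13 listed; median 0.20). GNAS, the alpha subunit that stimulates adenylyl cyclase, had a log2 fold change of 0.66 (SE 0.0600; FDR 2.84e-06), and GNAO1, the main Go subunit of neurons, rose from 177 ± 9.64 to 239 ± 9.55 CPM. Of 13 adenylyl cyclase and phospholipase C beta genes 10 were tested, with ADCY5, ADCY7 and ADCY9 higher and PLCB1 and ADCY1 lower (median 0.11). ADCY5 rose from 22.8 ± 2.71 to 40.1 ± 0.659 CPM (log2 fold change 0.81, SE 0.0899; FDR 1.46e-05), and PLCB1 fell from 458 ± 81.7 to 326 ± 16.7 CPM (log2 fold change -0.49, SE 0.107; FDR 0.00515).

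Of 23 listed receptor kinase, arrestin and RGS genes 21 were in the tables and tested, and 8 rose and 2, GRK5 and RGS2, fell (median 0.24). RGS proteins shorten signalling by speeding GTP hydrolysis on the alpha subunit. RGS4 rose from 745 ± 63.6 to 1176 ± 69.7 CPM (log2 fold change 0.66, SE 0.0702; FDR 9.83e-06) and RGS16 from 65.2 ± 3.19 to 108 ± 2.36 CPM (log2 fold change 0.73, SE 0.0603; FDR 1.06e-06). ARRB1, an arrestin that uncouples activated receptors, rose from 121 ± 12.3 to 182 ± 6.13 CPM (log2 fold change 0.60, SE 0.0706; FDR 2.44e-05). The medians of these lists stand beside -0.0021 for all tested genes, and no list was tested.

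**Figure D4:**
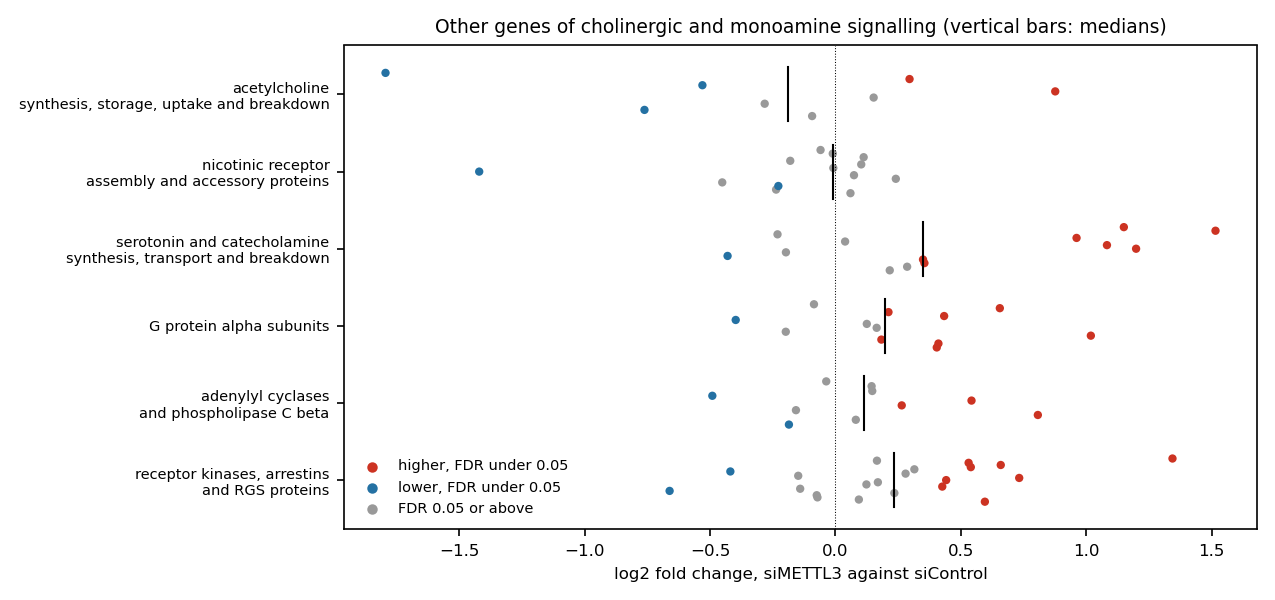
Log2 fold change (siMETTL3 against siControl) of the tested genes in 6 lists of cholinergic and monoamine signalling, 1 point per gene colored by call, with a vertical bar at each list's median. The monoamine list has its median at 0.35, and the acetylcholine list has calls on both sides of 0 with a median of -0.19.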

How the data were processed

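RNA-seq was measured in 6 Kelly libraries, 3 per group, with groups and replicate numbers taken from the sample titles. Per the file headers, the authors deposited raw read counts per gene from featureCounts v1.5.3 with the protein-coding genes of GENCODE release 33. The counted feature was the whole gene, with its introns; reads on overlapping genes counted for every one of them (6603 of 19923 genes overlap another), and no strand or read-pair option was set. The headers call the alignments input, and the labels do not say of what. Between 73.7% and 80.6% of genes with 1 to 20 counts had an even count per library, so both reads of a pair may have been counted and the counts may hold fewer independent fragments. The submitters' processing notes name GRCh38, FastQC 0.11.5, Trimmomatic 0.36, HISAT2 2.1.0 and Subread 1.5.3. Gene positions come from the count tables themselves, in GRCh38 and counted from 1.

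Genes were filtered with filterByExpr (15311 kept), scaled by TMM and tested with edgeR 4.0.16 (quasi-likelihood, R 4.3.3) over all 6 libraries with no covariate, with Benjamini-Hochberg FDR under 0.05 over all genes. The fit was tested on simulated counts, in 5 draws with 200 changed genes each. It called 88.7% of the genes changed 2-fold, and 7.22% of its calls were false at an FDR under 0.05. CPM values use TMM-scaled library sizes. Exon lengths and transcripts came from GENCODE release 44, in which 18999 symbols were matched to the tables. Alternatives were 3 other scalings, other filters, DESeq2 1.42.0, limma-voom 3.58.1, a replicate block, each library left out, and genes without overlaps; halved counts were added after seeing the data. The values of 1 receptor gene are not reported here, though it is counted in the totals. Named were METTL3, every other receptor gene, and up to 3 genes of each list by lowest FDR; other list genes, and genes that overlap a receptor gene, were named after their values were seen. The members and lists were chosen with earlier results of these data known. Libraries of a group differed by more than sampling noise (chi-square per degree of freedom 3.11 to 16.9).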

Additional observations from a re-analysis of the deposited data

How the results depend on the processing

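METTL3 and the calls of ADRA1D, CHRNA2, CHRM1, CHRM3, CHRNB4, DRD2, HTR1E, ADRA2A and ADRA2C kept their direction and their side of the threshold under every alternative that gave a value. The receptor genes called higher were 9 to 12 (11 in the report) and those called lower 3 or 4 (3) under the settings that kept all libraries. Leaving out 1 library gave 8 to 14 receptor genes higher and 2 to 4 lower, and 2091 to 3178 of all genes higher and 2119 to 3216 lower. Without siMETTL3 replicate 2, CHRNA4, CHRNA7, HTR3B and HTR6 were no longer called; without siControl replicate 3, CHRM2, CHRNB1, CHRNB2 and CHRND were called and CHRNA4 was not. DESeq2 called 12 receptor genes, without CHRNA4 and HTR3B. Keeping only genes without overlaps left 1852 genes higher and 1897 lower, since fewer genes were tested (9517). The median per-length level of the tested receptor genes fell from 1.77 to 0.180 CPM per kb with the span length of the tables, since spans include introns. CHRNG, uncalled, turned to -0.0068 with no filter, -0.0082 with halved counts and -0.0020 with limma-voom; ADRA1B turned to 0.023 and CHRNA10 to -0.012 with limma-voom; the cause was not tested. With 1 library left out, the uncalled log2 fold changes ran from -0.56 to 0.29 for CHRNA1, -0.099 to 0.16 for CHRNG, -0.22 to 0.27 for ADRA1B, -0.50 to 0.41 for CHRNA10 and -0.028 to 0.053 for CHRM5. Total count scaling made 53.9% of all calls higher (49.2% with TMM) and moved the median of all genes to 0.021.

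The replicate numbers are not stated to pair the libraries, and same-numbered libraries correlated at 0.052, 0.0595 and 0.103, so they were not treated as pairs. Each of the 6 libraries correlated best with its own number, as a hint from the data only. With a replicate block, 10 receptor genes were called higher and 4 lower, of 3047 and 3119 genes in all; CHRNA4 and HTR3B were lost, and CHRNB2 and HTR2C gained. The planned change of pseudocount was not run, because the tables hold counts. Receptor genes near or under 0.49 CPM rest on few reads, which limits what could be detected in them.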
